A study of Mus musculus with 8 samples.

Results

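The proteasome is described here through the genes of its subunits, activators and assembly chaperones in mouse spleen RNA. The array's gene names held 45 genes that begin with Psma to Psmg and a number, once the interferon-inducible core genes Psmb8, Psmb9 and Psmb10 were set aside, among 24203 named genes in all. They have 79 features (a feature is the summary of the probes for 1 transcript) of the 44170 on the array. Psmc3ip matches by its name alone, since it encodes a protein of meiotic recombination, so 44 genes were counted as proteasome genes and Psmc3ip was kept apart. Psmd1, a large scaffold subunit of the base, has no feature under this name and was not analysed here. Each gene is represented by its brightest feature over the 8 arrays. Spleens came from 4 animals lacking miR-155 (miR-155 knockout) and from 4 wild types, with 1 spleen and 1 array each. The knockout animals Mim1-5 and Mim1-6 are labelled female and Mim2-2 and Mim2-3 male, so among knockouts the labelled sex and the Mim1 or Mim2 name cannot be told apart. Wild types 1 and 3 are labelled female and wild types 2 and 4 male. Strain, age, and how the knockout allele was made are not given in the sources used here. All values are log2 intensities, and a difference of 1 is a 2-fold change. They compare one feature between arrays, not different genes with each other.

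The proteasome degrades proteins tagged with ubiquitin. Its core particle is a barrel of alpha and beta rings, with the active sites inside the beta rings. The regulatory particle caps the barrel: a base with a ring of ATPases unfolds the substrate and feeds it into the core, and a lid removes its ubiquitin chain. In lymphoid tissue, interferon exchanges the catalytic beta subunits for Psmb8, Psmb9 and Psmb10 and raises the activator of Psme1 and Psme2, which favours peptides for antigen presentation. NRF1, encoded by Nfe2l1, drives the subunit genes together when proteasome activity is short.

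The arrays had median intensities of 112.1 to 119.1 and random probes at log2 4.94 to 5.24. Mim2-2 and Mim2-3 stood apart, with mean correlations to the other arrays of 0.848 and 0.852 over all features against 0.894 to 0.911 for the other 6 arrays. The feature for BIC, the transcript that carries miR-155, read 7.51, 5.37, 5.28 and 5.46 in the knockouts and 5.27, 4.84, 4.85 and 5.63 in wild types 1 to 4. The sources used here do not place its probes within or outside the deletion, so it cannot check the labels. The sex labels were not separated by sex-linked genes: Xist, the X inactivation transcript, averaged 10.1 on the arrays labelled female and 9.95 on those labelled male, and the Y-linked Ddx3y 7.82 and 7.76. Ddx3y separated the genotypes instead, at 8.39 to 8.83 in knockouts and 6.26 to 7.33 in wild types, and Xist averaged 9.52 in knockouts and 10.56 in wild types (limma adjusted p = 0.262 and 0.391). The part of this in the genotype differences given here was not tested. Spleen markers were present, with a mean of the 9 B cell genes of 9.35 to 10.3 in knockouts and 8.27 to 8.79 in wild types. Mammary epithelium markers, which spleen should lack, were bright too. The mean of these 15 genes was 7.77 on Mim2-2, 9.07 on Mim2-3, 10.2 and 10.4 on the Mim1 arrays and 10.9 to 11.3 in wild types, and none of the 15 lay near the random probes on all arrays. The pancreas list of 8 genes had means of 7.08 to 7.85 in knockouts and 5.35 to 6.05 in wild types. In bulk RNA, fewer cells of a type and less RNA per cell cannot be told apart.

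Of the 44 genes, 42 lay above the random probes on all 8 arrays. Psmb11, the beta subunit of the thymus proteasome, lay below them on every array but is kept in the counts, and Psma8, the alpha subunit of the testis proteasome, lay above them on 7.

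Promoter windows from RefSeq (build GRCm38.p6, 250 bases before to 50 after a start site) matched 36 of the 44 genes, with 39 windows. The core of the antioxidant response element is TGANNNNGC on either strand, which NRF1 and NRF2 bind with small MAF proteins. It was in 22 of these 39 windows (56.4%) and in 41.3% of all 32851 windows. Windows of Psme2 overlap and hold the same match, which is counted in each. By gene the core was in 20 of the 36. The next sequences are the bases before the start site of Psmd12, a lid gene low on both Mim2 arrays, and of Psmb5, a catalytic core gene, with matches in capitals. Psmd12 lies on the plus strand at chr11:107479278-107479527 and has 2 matches, whose first bases lie at -247 and -28 from the start site; Psmb5 lies on the minus strand at chr14:54617996-54618245 and its match there begins at -47.
Psmd12: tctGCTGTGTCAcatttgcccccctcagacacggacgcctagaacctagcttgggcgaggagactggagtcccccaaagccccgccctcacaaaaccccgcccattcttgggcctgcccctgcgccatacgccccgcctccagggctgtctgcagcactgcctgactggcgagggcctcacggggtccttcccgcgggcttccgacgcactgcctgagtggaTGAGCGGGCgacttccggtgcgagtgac
Psmb5: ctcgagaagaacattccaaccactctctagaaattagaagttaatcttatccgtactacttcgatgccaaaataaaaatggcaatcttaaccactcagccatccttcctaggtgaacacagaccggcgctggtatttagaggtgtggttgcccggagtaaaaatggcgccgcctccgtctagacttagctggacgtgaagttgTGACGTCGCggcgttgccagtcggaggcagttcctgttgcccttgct
The core of the interferon-stimulated response element, searched on both strands as a motif chosen after the values were seen, was in 5 of the 39 windows (12.8%) and in 3.44% of all windows. The 5 genes were Psmb3, Psmd4, Psme1, Psmd9 and Psmg4. The match of Psme1, on the opposite strand, is shown as read on the plus strand at chr14:55578493-55578522, beside the antioxidant response element core of its partner Psme2 on the minus strand at chr14:55591069-55591098.
Psme1: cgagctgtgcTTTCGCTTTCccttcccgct
Psme2: cagcccctgaTGATGAAGCcaacaccgccc
These matches are letters in a window and say nothing about binding.

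The first comparison asked how the proteasome genes of knockout spleens stood against wild type. None of the 44 genes passed the test, and their differences were small. The median difference, knockout minus wild type, was 0.09, with 25 genes above 0 and 19 below, against a median of 0.06 over all named genes. The median size of the difference, whatever its sign, was 0.23 for the proteasome genes and 0.40 for all named genes. Among genes with a mean of at least 9 it was 0.227 for 38 proteasome genes and 0.395 for 6469 genes. For 28 of 44 genes the 95% interval of the difference lay wholly within a 2-fold change in either direction. In limma, with labelled sex as a term, 0 of 44170 features (0%) were called at an adjusted p of 0.05, and the lowest adjusted p among the proteasome genes was 0.298, for Psma8. At an unadjusted p under 0.05, 2 of the 44 genes, Psma8 and Psmd7, were higher and 0 were lower, against 7.7% higher and 6.61% lower of all named genes. The 4 knockout values lay wholly above the 4 wild-type values for 3 genes, Psma2, Psmd7 and Psme1, and wholly below for 0, against 5.27% and 2.55% of all named genes. Both shares of the proteasome genes lie near or under these backgrounds.

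**Figure D1:**
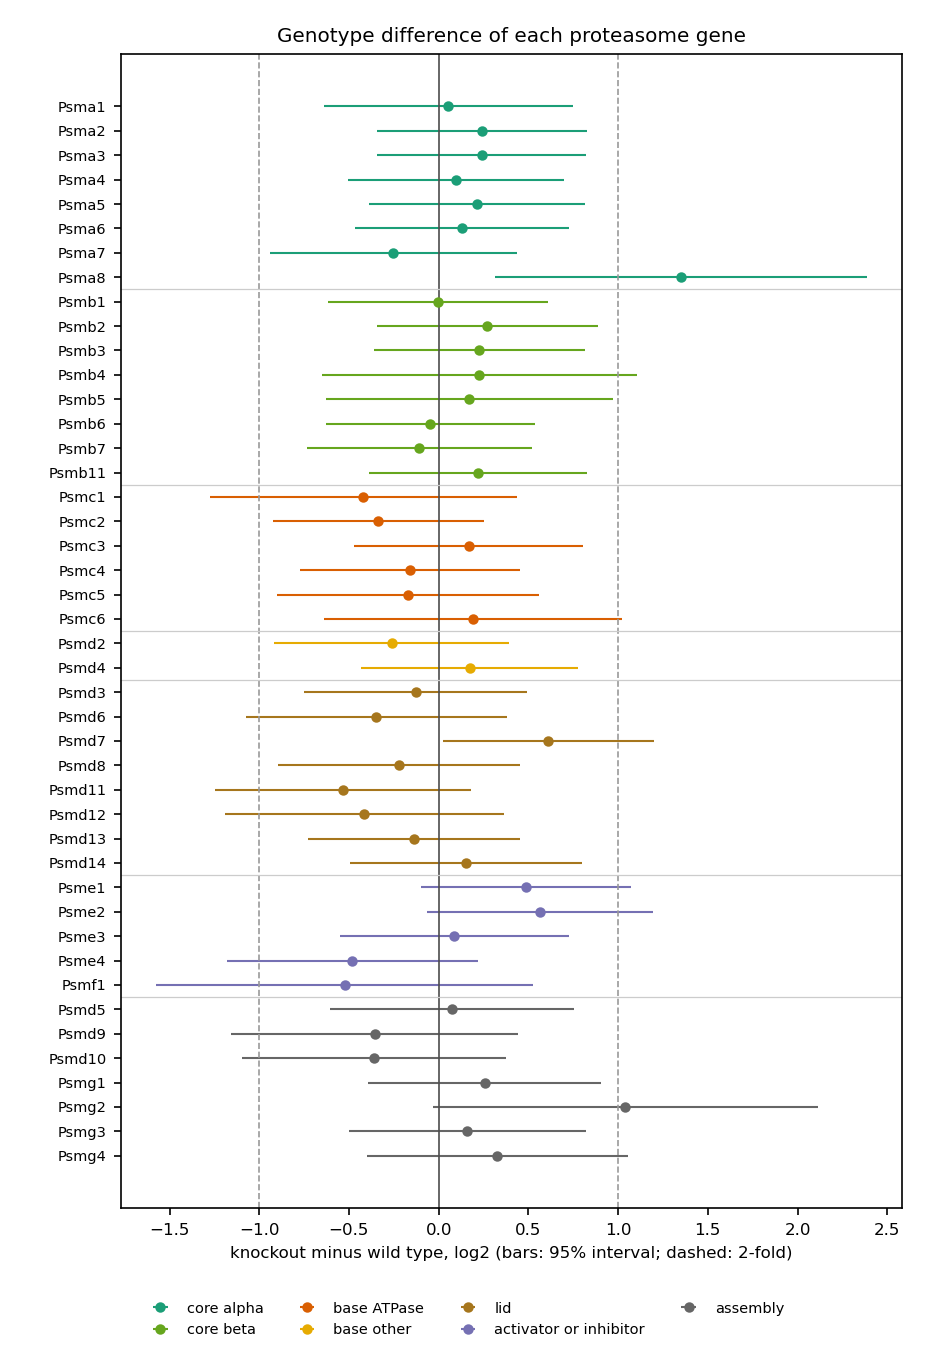
Knockout minus wild type for each of the 44 proteasome genes on the log2 scale, with points for the limma estimate and bars for its 95% interval, coloured by role. All but 2 intervals, those of Psma8 and Psmd7, cross 0, and dashed lines mark a 2-fold change.

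The core particle kept close to wild type. Its 16 genes had a median difference of 0.19. Without Psma8 and Psmb11, which were dim here, the 14 others ran from -0.25 (Psma7) to 0.27 (Psmb2), with 10 above 0 and 4 below and a median of 0.15. The interval stayed within 2-fold for 13 of these 14 genes, all but Psmb4.

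The catalytic genes had no common direction. Psmb5, the chymotrypsin-like site (feature at chromosome 14, 55232955 to 55236840, build MM9), read 11.05 and 11.56 in the Mim1 animals, 12.02 and 10.78 in the Mim2 animals, and 11.47, 10.83, 11.05 and 11.38 in wild types 1 to 4. Mim2-2 was its highest array and Mim2-3 its lowest. The difference was 0.17 ± 0.35 (SE; limma adjusted p = 0.859), and -0.10 without Mim2-2.

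Psmb6, the caspase-like site, read 12.57, 12.43, 12.20 and 12.14 in the knockouts (in the order Mim1-5, Mim1-6, Mim2-2, Mim2-3, used for all genes here) and 12.54, 12.45, 12.40 and 12.13 in wild types. Psmb7, the trypsin-like site, read 13.36, 13.27, 13.08 and 13.19 against 13.47, 13.44, 12.91 and 13.52. The genotypes overlapped for both, with differences of -0.05 ± 0.26 for Psmb6 and -0.11 ± 0.28 for Psmb7 (SE). Neither passed in limma (adjusted p = 0.951 and 0.888).

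Psmb2, a beta subunit without an active site, had the largest difference among the beta genes, 0.27 ± 0.27 (SE; limma adjusted p = 0.681). It read 11.54, 11.46, 11.75 and 12.03 in knockouts and 11.57, 11.44, 11.47 and 11.24 in wild types, with both Mim2 arrays above the other 6. Without both Mim2 arrays the difference was -0.015. That fit keeps labelled sex as a term, so here and below its difference sets the Mim1 animals against wild types 1 and 3 alone. Against all 4 wild types the Mim1 mean of Psmb2 stood 0.075 higher. Among the alpha genes Psma2, described after its values were seen, was tight in the knockouts: 10.95, 10.91, 10.93 and 10.98 against 10.83, 10.83, 10.69 and 10.45. These groups did not overlap, and the difference was 0.24 ± 0.26 (SE; limma adjusted p = 0.702; exact permutation p = 0.0286, the smallest that 4 against 4 arrays can give). Every gene without overlap gets this permutation p, so for Psma2, Psmd7 and Psme1 it only restates the lack of overlap. Of all named genes, 5.27% lay wholly higher and 2.55% wholly lower in knockouts.

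Psma8 (chromosome 18, 14864697 to 14920296, build MM9) had the largest difference of all 44 genes, at low intensity. It read 7.12, 7.04, 7.66 and 5.87 in knockouts and 5.94, 4.48, 6.59 and 5.29 in wild types. Mim2-3 lay among the wild types, and wild type 2 lay under its random probes. The difference was 1.35 ± 0.46 (SE; limma adjusted p = 0.298; exact two-sided permutation p = 0.0857), and the other, dimmer feature of the gene differed by 0.27 ± 0.65 (SE). With the mammary marker mean as a term the difference of Psma8 was -0.13. That mean was lower in every knockout than in every wild type, so the term and the genotype are hard to tell apart. Values with this term, here and below, are therefore not corrected differences.

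**Figure D2:**
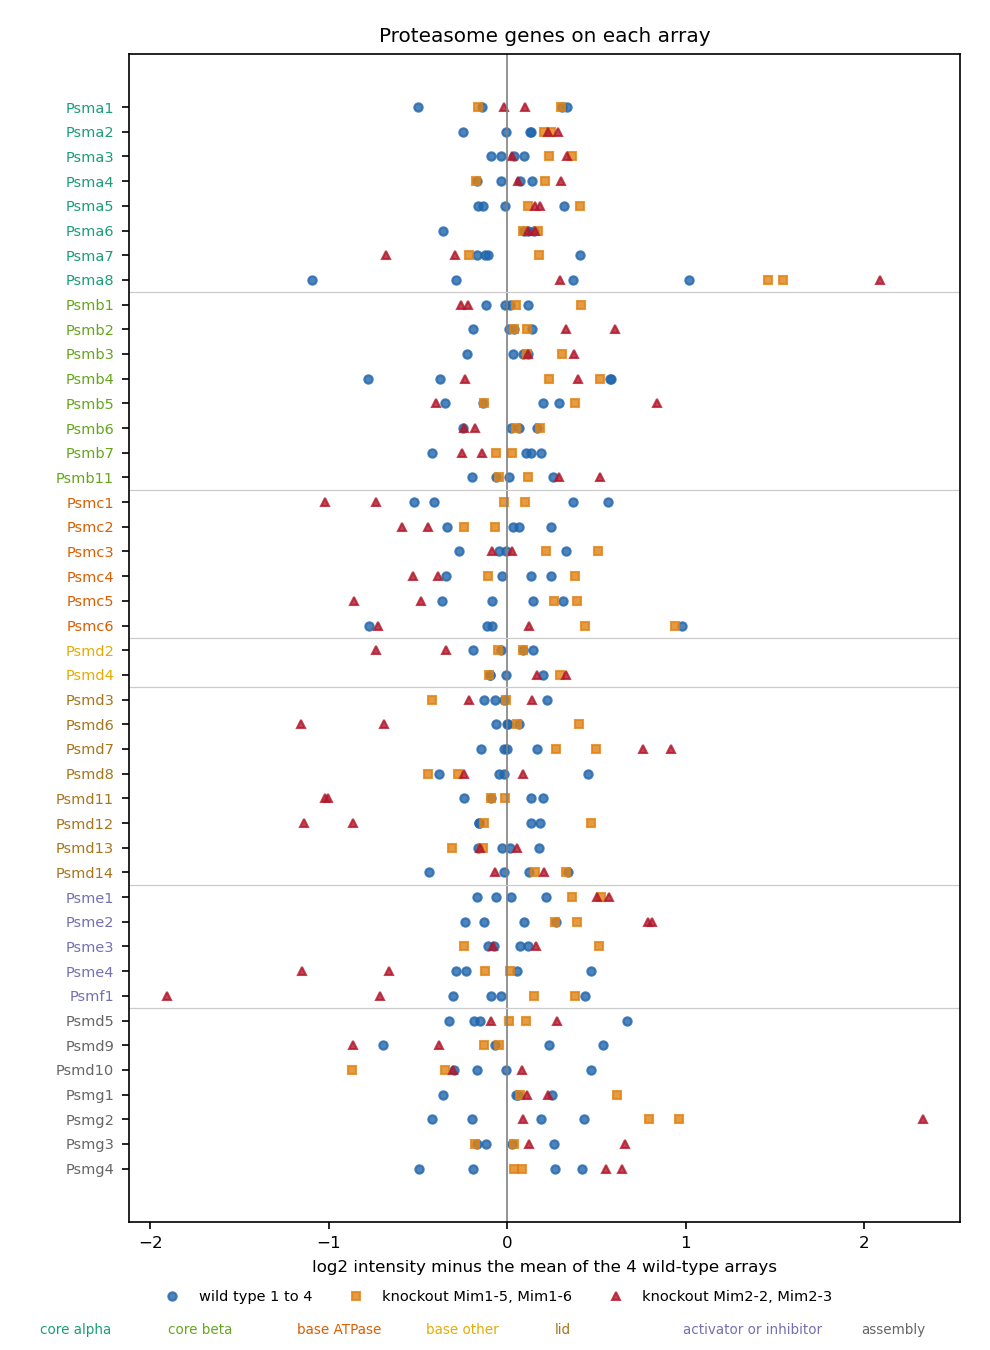
Log2 intensity of each proteasome gene minus the mean of the 4 wild-type arrays, 1 symbol per array, with gene names coloured by role. The triangles of Mim2-2 and Mim2-3 lie far left for Psmd6, Psmd11, Psmd12, Psme4 and Psmf1, while most core genes stay within 0.5 of the wild-type mean.

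The 16 genes of the regulatory particle had a median difference of -0.17, with 5 above 0 and 11 below, and 0 passed the test. This sign rests on Mim2-2 and Mim2-3: without those arrays the median was 0.12 against wild types 1 and 3. Against all 4 wild types the median of the Mim1 animals was 0.12 too. The core medians were 0.16 and 0.13. With the mean of the mammary markers as a term the regulatory median was 0.12 and the core median 0.15, with the limit given above for that term. In the main fit the medians were -0.18 over 8 lid genes and -0.17 over 6 ATPases.

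Psmd11, a lid scaffold known to affect assembly of the capped particle (chromosome 11, 80242154 to 80285423, build MM9), read 10.86 and 10.95 in the Mim1 animals, 9.93 and 9.95 in the Mim2 animals, and 11.09, 10.86, 10.71 and 11.16 in wild types. The Mim1 arrays lay within the wild-type range, and both Mim2 arrays lay below every other array. The difference between genotypes was -0.53 ± 0.32 (SE; limma adjusted p = 0.475). The gene's other features differed by -0.12, -0.14 and 0.40, and 1 of these 3 also had both Mim2 arrays below all others.

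Psmd12, also a lid scaffold (chromosome 11, 107340823 to 107359105, build MM9), read 9.83, 10.43, 9.10 and 8.82 in knockouts and 10.09, 10.15, 9.81 and 9.81 in wild types. Again both Mim2 arrays were lowest, and the difference was -0.42 ± 0.34 (SE; limma adjusted p = 0.608). Psmd6, a further lid scaffold, described after its values were seen, read 10.74, 11.09, 9.999 and 9.53 against 10.75, 10.62, 10.69 and 10.69. Its wild-type spread was narrow (SD 0.05, n = 4), and the Mim2 arrays lay below it while the Mim1 arrays did not.

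Psmd7, which pairs with the lid's deubiquitinase Psmd14, was the lid gene with the largest positive difference. It read 10.02, 9.79, 10.28 and 10.44 against 9.38, 9.69, 9.50 and 9.52, with no overlap. The difference was 0.61 ± 0.26 (SE; limma adjusted p = 0.35; exact permutation p = 0.0286). Its brightest feature covers only 110111497 to 110112358 on chromosome 8 (build MM9), and the gene's other feature differed by 0.17 ± 0.27 (SE) and overlapped. Psmd14 itself differed by 0.15 ± 0.29 (SE).

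In the base, Psmc1 read 11.48, 11.36, 10.36 and 10.65 in knockouts and 11.75, 10.97, 10.86 and 11.95 in wild types, a difference of -0.42 ± 0.38 (SE; limma adjusted p = 0.641). Psmc2 read 12.07, 12.25, 11.73 and 11.87 against 12.38, 11.98, 12.56 and 12.35, a difference of -0.34 ± 0.26 (SE; limma adjusted p = 0.586). Both encode ATPases of the ring, and both were lowest on the Mim2 arrays. Psmd2, the base scaffold that docks ubiquitin-like shuttles, read 11.81, 11.67, 11.38 and 10.99 against 11.53, 11.81, 11.69 and 11.87, a difference of -0.26 ± 0.29 (SE; limma adjusted p = 0.712). Without the Mim2 arrays the differences of Psmc1, Psmd2, Psmd6, Psmd11 and Psmd12 were 0.12, 0.13, 0.19, 0.0021 and 0.18, while that of Psmc2 stayed at -0.31. The ubiquitin receptor Psmd4 differed by 0.17 ± 0.27 (SE) and overlapped. Its 4 other features differed by -0.20, -0.46, -0.32 and -0.29, and 2 of them had both Mim2 arrays below all others.

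Activators and the inhibitor went in different directions. Psme1 and Psme2, the subunits of the interferon-inducible activator, lie close together on chromosome 14 (56197310 to 56200365 and 56206279 to 56209778, build MM9). Psme1 read 12.51, 12.34, 12.55 and 12.48 in knockouts and 12.20, 11.81, 12.003 and 11.92 in wild types, with no overlap. Its difference was 0.49 ± 0.26 (SE; limma adjusted p = 0.432; exact permutation p = 0.0286). Psme2 read 12.29, 12.42, 12.81 and 12.84 against 12.30, 12.12, 11.79 and 11.90, and Mim1-5 overlapped wild type 1. Its difference was 0.56 ± 0.28 (SE; limma adjusted p = 0.402; exact permutation p = 0.0571).

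The immunoproteasome genes, which assemble with this activator, were set beside them. Psmb10 read 12.02, 11.92, 12.34 and 12.35 in knockouts and 11.70, 11.89, 11.61 and 11.13 in wild types, with no overlap and a difference of 0.57 ± 0.29 (SE; limma adjusted p = 0.414). Psmb9 differed by 0.46 ± 0.27 and Psmb8 by 0.17 ± 0.35 (SE; limma adjusted p = 0.476 and 0.854), and both overlapped. None of the 3 passed. B cell and T cell marker means were higher in every knockout than in every wild type. B cell markers were given above, and the 9 T cell genes stood at 8.82 to 9.68 in knockouts and 8.16 to 8.72 in wild types. The mean of the 7 macrophage genes overlapped, at 9.54 to 10.1 and 8.79 to 9.69, with a median difference of 0.92. The remaining blood cell lists went in different directions. The neutrophil mean was 7.73 to 8.56 in knockouts and 8.79 to 9.07 in wild types. The erythroid mean (9.86 to 10.8 and 10.4 to 10.8) and the plasma cell mean (8.40 to 8.73 and 8.24 to 8.94) overlapped too. Their median differences were -0.31 and 0.12. Their part in these values was not tested.

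Psme4, a nuclear activator that binds the core without ATPases, read 9.43, 9.58, 8.41 and 8.90 in knockouts and 10.03, 9.61, 9.33 and 9.27 in wild types. Psmf1, an inhibitor of the core in purified systems (chromosome 2, 151543429 to 151566895, build MM9), read 10.36, 10.13, 9.27 and 8.08 against 9.89, 9.95, 9.68 and 10.42. For both genes the Mim2 arrays were the lowest of the 8 and the Mim1 arrays lay within the wild-type range. The genotype differences were -0.48 ± 0.31 for Psme4 and -0.52 ± 0.46 for Psmf1 (SE; limma adjusted p = 0.508 and 0.633). Without the Mim2 arrays they were -0.17 for Psme4 and 0.46 for Psmf1. With the mammary marker mean as a term they were 0.17 and 0.18.

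The 7 assembly chaperones had a median difference of 0.16. Psmg2, a chaperone of the alpha ring (chromosome 18, 67801252 to 67806141, build MM9), read 6.56, 6.39, 5.69 and 7.93 in knockouts and 5.79, 5.18, 5.4 and 6.03 in wild types. Its difference of 1.04 ± 0.48 (SE; limma adjusted p = 0.372) came at low intensity, with Mim2-2 among the wild types and Mim2-3 far above. Psmd10, known as gankyrin, a chaperone of the base, read 9.57, 10.09, 10.52 and 10.14 against 10.91, 10.14, 10.44 and 10.27, a difference of -0.36 ± 0.33 (SE; limma adjusted p = 0.639), and of -0.84 without the Mim2 arrays. Psmc3ip, the name match outside the proteasome, read 9.17, 9.01, 8.35 and 7.22 against 9.30, 9.0, 8.62 and 9.30, a difference of -0.62 ± 0.42 (SE; limma adjusted p = 0.525), and was lowest on the Mim2 arrays; without them the difference was 0.12.

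The knockout animals were then compared with each other, Mim2 minus Mim1, since their arrays differed over the whole series. Here the array as a whole had calls, 795 of 44170 features (1.8%), and the proteasome genes had 0 of 44. The lowest adjusted p was 0.131, for Psmf1. At an unadjusted p under 0.05 in limma, 5 proteasome genes were lower in Mim2 (Psmc5, Psmd6, Psmd11, Psmd12 and Psmf1) and 0 were higher, against 10.9% lower and 8.97% higher of all named genes. The median size of the difference was 0.345, against 0.594 over all named genes. With a trended, robust variance, limma called Psmd6 and Psmf1 (adjusted p = 0.0355 and 0.0422), 2 of the 44 genes, against 2719 of 44170 features.

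The counts of genes given next rest on the brightest feature of each gene. Of the 44 genes, 25 were lower in Mim2 than in Mim1, 11 of the 16 regulatory genes and 9 of the 16 core genes among them. By these features all 6 ATPases were lower in Mim2 than in Mim1, with a median difference of -0.76. Psmc5 differed by -1.0 ± 0.39 (SE, limma adjusted p = 0.22). The other feature of Psmc1 differed by -0.92 ± 0.43 (SE). That of Psmc4 went the other way, by 0.69 ± 0.35 (SE), with both Mim2 arrays above the other 6. The lid was divided, with 4 genes lower and 4 higher and a median of -0.00089. Psmd12 differed by -1.17 ± 0.39, Psmd6 by -1.15 ± 0.36, Psmd11 by -0.96 ± 0.35 and Psmf1 by -1.58 ± 0.47 (SE; limma adjusted p = 0.162, 0.144, 0.196 and 0.131). The 16 core genes had a median of -0.06. Both Mim2 arrays lay below all 6 others for 12 genes: Psma7 and Psmb1 of the core, Psmc1, Psmc2, Psmc4, Psmc5, Psmd2, Psmd6, Psmd11 and Psmd12 of the regulatory particle, and Psme4 and Psmf1. They lay above all 6 others for 5 genes, Psmb2, Psmb11, Psmd7, Psme2 and Psmg4. Over all named genes these shares were 14.4% below and 16.3% above. Of the 12 low genes 11 have a promoter window, and 4 of these hold the antioxidant response element core (Psma7, Psmc2, Psmd12 and Psme4), against 16 of 25 other proteasome genes.

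Per array, the mean deviation from wild type of the 14 brighter core genes and of the 16 regulatory genes ran close together on most arrays. The regulatory mean was -0.35 on Mim2-2 and -0.32 on Mim2-3, and between -0.11 and 0.18 on the other 6. The core minus regulatory gap was 0.51 and 0.28 on the Mim2 arrays, 0.04 and 0.05 on the Mim1 arrays, and -0.04, 0.15, -0.05 and -0.05 in wild types 1 to 4. With the mean of all features of a gene above the random probes in place of the brightest, the gap was 0.42 and 0.30 on the Mim2 arrays and at most 0.13 elsewhere. These are descriptions, since the groups of arrays were compared after their values were seen. The mammary marker mean was also lowest on the Mim2 arrays, and so was the mean of 9 proliferation genes, 8.15 and 7.80 against 8.43 to 9.82 on the other 6. Their part in the gap was not tested.

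**Figure D3:**
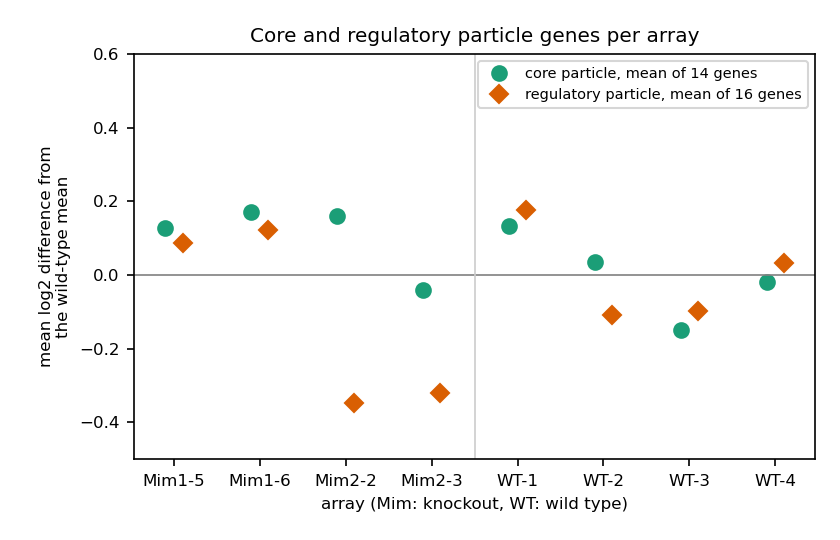
Mean log2 difference from the wild-type mean on each array for 14 core particle genes (circles) and 16 regulatory particle genes (diamonds). The diamonds of Mim2-2 and Mim2-3, at -0.35 and -0.32, lie apart from their circles and from all other diamonds.

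Within the labelled sexes, the knockout minus wild type difference had 1875 calls (4.24%) over all features among the animals labelled male and 0 (0%) among those labelled female. By their brightest features, 0 proteasome genes were called in either. A dimmer feature of Psmg4 was called among the animals labelled male (difference 1.66, limma adjusted p = 0.0491). The test of the difference between them, the interaction of genotype and labelled sex in limma, called 0 of 44170 features (0%) and had its lowest adjusted p among the proteasome genes at 0.278, for Psmf1. Psmf1 differed by 0.46 among animals labelled female and by -1.51 among those labelled male. For Psmd11 these differences were 0.00 and -1.07, and for Psmd12 0.18 and -1.01. The core genes had medians of 0.16 among animals labelled female and 0.17 among those labelled male, and the regulatory genes 0.12 and -0.22. The differences among animals labelled female are the same values as those given without both Mim2 arrays, not a second result.

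**Figure D4:**
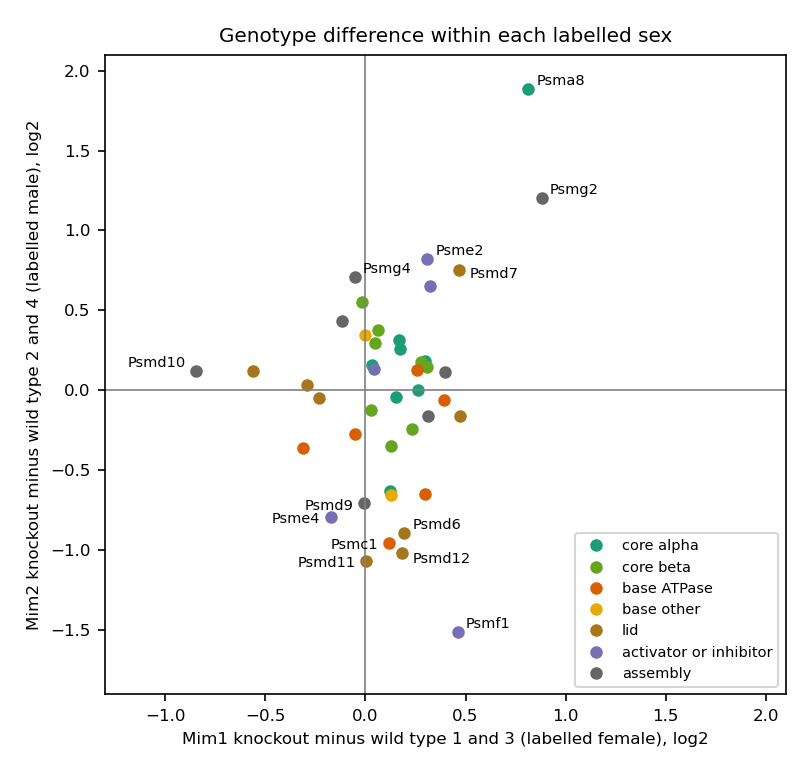
Knockout minus wild type among animals labelled male (vertical axis, log2) against the same among animals labelled female (horizontal axis, log2), 1 point per proteasome gene, coloured by role. The inhibitor gene Psmf1, the lid genes Psmd11 and Psmd12 and the base gene Psmc1 lie low on the vertical axis and near 0 or above on the horizontal one. Other lid and base genes do not by their brightest features, such as Psmd7 at 0.76 and Psmd4 at 0.34 on the vertical axis. Among animals labelled male the other feature of Psmd7, not drawn, differed by 0.07. Those of Psmd4 differed by -0.47, -1.11, -0.60 and 0.37.

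Features of the same gene did not always move together. Of 17 genes with several features above the random probes on all arrays, 9 had genotype differences of opposite sign between features. For Mim2 minus Mim1, 7 of the 17 did: Psmb5, Psmc4, Psmd4, Psmd7, Psmd8, Psmd9 and Psme3. The other feature of the ATPase gene Psmc4 read 10.45, 10.12, 10.90 and 11.05 in knockouts and 10.01, 9.82, 9.72 and 9.60 in wild types. It was higher in every knockout by 0.84 ± 0.30 (SE), with no overlap, while the brightest feature differed by -0.16 ± 0.27 and had its lowest values on the Mim2 arrays. The other feature of Psmf1 read 8.56, 8.60, 8.53 and 8.41 in knockouts and 8.39, 8.90, 8.07 and 8.10 in wild types, so the low Mim2 values belong to the brightest feature alone. For Psmd10 the other feature differed by 0.51 ± 0.30 (SE), against -0.36 for the brightest. Over all 78 features of the 44 genes limma called 0, with 6 higher and 0 lower at an unadjusted p under 0.05, against 6.98% higher and 6.88% lower of all features.

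**Figure D5:**
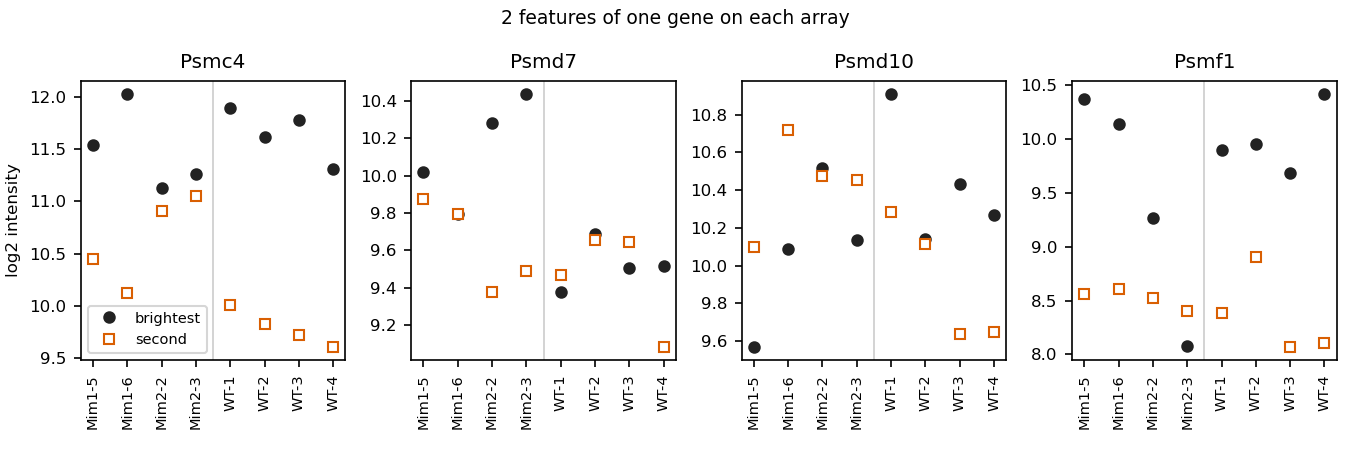
Log2 intensity on each array of the brightest feature (filled circles) and the other feature (open squares) of Psmc4, Psmd7, Psmd10 and Psmf1, with knockouts left of the grey line. The open squares of Psmc4 are higher in all knockouts, and those of Psmf1 stay between 8.07 and 8.90 while its circles read 9.27 and 8.08 on the Mim2 arrays.

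The other genes of the pathway were read from 5 lists, of shuttle factors, proteasome-bound regulators, NRF1 and its activation, ubiquitin and its activation, and the unfoldase p97. Of 35 listed genes 34 were measured, and 0 were called in limma for the genotype. At an unadjusted p under 0.05, 2 were higher and 2 were lower of these 34, near the background of 7.7% and 6.61% of all named genes, with a median difference of 0.05. Nfe2l1, the gene of NRF1, read 13.15, 12.96, 11.88 and 12.07 in knockouts and 13.50, 13.31, 13.57 and 13.06 in wild types, lowest on both Mim2 arrays (difference -0.84 ± 0.28, SE; limma adjusted p = 0.296). Akirin2, which carries proteasomes into the nucleus, read 9.95, 9.66, 10.11 and 10.47 against 9.27, 8.84, 9.24 and 8.59, with no overlap (difference 1.06 ± 0.31, SE; limma adjusted p = 0.274).

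Uba6, an enzyme that activates ubiquitin, differed by 1.55 ± 0.43 and Ube3c, a ligase bound to the proteasome, by -1.03 ± 0.38 (SE; limma adjusted p = 0.268 and 0.309). Both separated the genotypes without overlap. Akirin2, Uba6 and Ube3c were named for their small p, so their lack of overlap adds no support. Of all named genes, 5.27% lay wholly higher and 2.55% wholly lower in knockouts. The shuttle gene Ubqln1, which brings ubiquitin-tagged proteins to Psmd2 and its neighbours, read 10.93 and 11.36 on the Mim1 arrays, 8.69 and 8.71 on the Mim2 arrays and 10.61 to 10.97 in wild types. In Mim2 against Mim1 it fell by 2.44 on the log2 scale (limma adjusted p = 0.0384). Over the array 795 of 44170 features (1.8%) were called in this contrast. No count of its calls over the pathway lists is given, so this call is not a result about the pathway.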

How the data were processed

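Total RNA of 8 spleens carried a Cy3 label and was read on NimbleGen arrays of 1 colour, per the labels. The authors deposited a linear intensity for every feature. RMA (background correction, normalization between arrays, summary of probes) is named in the submitters' processing notes without a version. Per the file headers, 44155 of 44170 features rest on 3 probes, with positions in build MM9. The number of arrays limits the precision.

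Intensities were turned to log2 with no further normalization. The limma package (3.58.1, R 4.3.3) gave all differences by lmFit and eBayes; tests were two-sided, p-values were adjusted by Benjamini-Hochberg across the 44170 features, and 0.05 was the threshold. The genotype fit had labelled sex as an additive term; a fit with the interaction gave the differences within each labelled sex and Mim2 minus Mim1. Exact two-sided permutation tests ran over 70 arrangements of the arrays. Simulated data were used to test the limma script. Values on each array are given for the 12 members with the smallest p, the 3 catalytic core genes and the largest difference within each role; Psma2 and Psmd6 and the values of other features were added after values were seen. Of the other pathway lists the named genes come from the 4 with the smallest p in each, and not all are described. The members, lists and comparisons were chosen with earlier results of these data known. Promoter sequences and current symbols came from RefSeq (GRCm38.p6). The animals are separate, so the spread is that between animals.

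Alternatives covered labelled sex as a term, quantile normalization, equal medians, a filter on dim features, variance model, array weights, a floor, the mean of all features, the authors' series table, the Mim2 arrays, the mammary marker mean and each array.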

Additional observations from a re-analysis of the deposited data

Results flagged for a closer look

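In 4 of 88 groups of 4 arrays (44 genes in each genotype), 1 array stood farther from the other 3 than a gap test at the 95% level allows, where chance gives about 1 in 20 groups. Psma6, an alpha subunit, had its lowest wild-type value of 11.26 in wild type 3, against 11.72 to 11.77 in the other wild types. Psmb7, the trypsin-like site, was also lowest there, at 12.91 against 13.44 to 13.52. Psma7, an alpha subunit, was highest in wild type 4, at 14.04 against 13.47 to 13.53. Psmd5, a chaperone of the base, was highest in wild type 4 as well, at 9.94 against 8.95 to 9.12. All 4 flags fell on wild-type arrays and none on a knockout array.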

How the results depend on the processing

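Of 378 alternative values of the 20 members given per array, 352 kept their direction and 26 changed sign, and no member passed limma's threshold for the genotype in any alternative. With a trended, robust variance limma called 16 features, 7 higher and 9 lower and none a proteasome gene. For Mim2 minus Mim1 it called 2 of the 44 proteasome genes, against 2719 of 44170 features. These 2 calls are therefore not a result about the members. This alternative was added after the data were seen, and the cause was not tested. Proteasome genes without overlap between genotypes numbered 5 with the mean of all features of a gene (Psma2, Psmc4, Psmd7, Psme1 and Psmg4 higher, against 4.84% of all genes higher and 2.52% lower). They numbered 7 without both Mim2 arrays, where fewer values must separate (Psma2, Psma3, Psma8, Psmd7, Psme1 and Psmg2 higher, Psmd10 lower, against 8.83% and 7.13% of all features). With 1 array left out they numbered 4 to 6: 6 without wild type 1, and 5 without Mim1-5, Mim2-2, Mim2-3 or wild type 2. There too fewer values must separate, and no share over all features is given, so these counts are not a result about the members. The median difference of the 44 genes lay between 0.0033 (without wild type 3) and 0.117 with 1 array left out, and was 0.170 with quantile normalization, 0.140 without both Mim2 arrays and 0.166 with the mammary marker mean as a term. With the mean of all features, Psmb2 stood at -0.26, Psmb7 at 0.013 and Psmd10 at 0.076. Without both Mim2 arrays the difference set Mim1 against wild types 1 and 3. There Psmb2 stood at -0.015, Psmb6 at 0.026, Psmb7 at 0.13, Psmc1 at 0.12, Psmd2 at 0.13, Psmd6 at 0.19, Psmd11 at 0.0021, Psmd12 at 0.18, Psmf1 at 0.46 and Psmc3ip at 0.12, while Psmd10 stood at -0.84. With the mammary term Psmd10 stood at -1.08. With the mammary marker mean as a term, Psma8 stood at -0.13, Psmb5 at -0.49, Psmb6 at 0.032, Psmb7 at 0.30, Psmc1 at 0.48, Psmd2 at 0.025, Psmd6 at 0.087, Psmd11 at 0.16, Psmd12 at 0.17, Psme4 at 0.17 and Psmf1 at 0.18. The lowest limma adjusted p over the proteasome genes was then 0.773. Since that mean separates the genotypes, the term and the genotype are hard to tell apart, and the cause of these shifts was not tested. With 1 array left out, Psmb5 ranged from -0.10 (without Mim2-2) to 0.39 and Psmb6 from -0.096 to 0.030 (without wild type 2). The filter on dim features left out Psmb11, and the authors' series table Psma8, Psmb11 and Psmg2. No paired analysis was possible because the animal names of the genotypes do not share a numbering that pairs them.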
